A study of Mus musculus with 2 samples.

Results

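Nuclear genes for structural subunits of the mitochondrial respiratory chain and ATP synthase were followed across the immune cell classes of B16-F10 mouse melanomas. They were taken by gene symbol, with no measured value used except a minimum level. Of 32285 genes in the deposited tables, 85 symbols matched the pattern (Nduf genes of the a, b, c, s and v series, Sdha to Sdhd, Uqcr, Cox4 to Cox8 and Atp5). Of these, 81 had at least 50 unique molecular identifiers (UMIs, one per captured RNA molecule) over both libraries. They comprised 36 genes of complex I, 4 of complex II, 8 of complex III, 16 of complex IV and 17 of complex V. Ndufa4 was counted with complex IV. The 4 symbols left out all belonged to complex IV: Ndufa4l2 with 33 UMIs lay just below the minimum, Cox7b2 had 3, Cox8b had 1 and Cox8c had 0. Just inside it were Cox4i2 with 270 UMIs, Cox7a1 with 550 and Cox6b2 with 578. Subunit genes whose symbols do not match the pattern, such as Cyc1 of complex III and Ndufab1 of complex I, were not among the members.

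Single-cell RNA sequencing of polyadenylated RNA had been carried out on CD45+ leukocytes sorted from the tumors of wild-type mice that received either vehicle (the Control group) or DOPAC, a metabolite of dopamine. The design text gives 4 mice per group, but each group is 1 library with no map from cells to mice. A group was therefore 1 sample: no test between groups was possible, no p-value is given, and every interval covers counting error only. The dose, the time of treatment and the age of the mice are not given in the sources used here.

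Electrons from NADH enter the chain at complex I and those from succinate at complex II, pass through ubiquinone to complex III and through cytochrome c to complex IV, and reduce oxygen there. Complexes I, III and IV pump protons, and complex V uses the gradient to make ATP. Each complex but complex II has a small catalytic core and many accessory subunits that assemble and stabilise it. In T cells and dendritic cells, activation is known to change the balance between respiration and glycolysis.

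The Control library held 9629 barcodes with 100938364 UMIs, and the DOPAC library 10777 barcodes with 47769958 UMIs. After filtering, 8074 Control cells (median 9293 UMIs) and 9280 DOPAC cells (median 3591 UMIs) were kept. The libraries shared 32 barcodes, 0.332% of those of Control and 0.297% of those of DOPAC. Cells were clustered without the 81 members and classes were named from marker genes, so each name stands for cells like that type. The cell type label reads lymphocyte, while myeloid classes with their own markers made up much of both libraries. With at least 100 cells in both libraries, 8 classes were compared: CD8 T cells outside the cell cycle (447 Control and 2188 DOPAC cells), other T cells (854 and 1001), regulatory T cells (116 and 148), NK cells (1069 and 1548), monocytes and macrophages as one class (2623 and 1646), type 1 conventional dendritic cells or cDC1 (429 and 168), cDC2 (542 and 355) and mature dendritic cells (346 and 128). Levels alone are given for cycling CD8 T cells (36 and 709), B cells (643 and 41), plasmacytoid dendritic cells or pDCs (394 and 51) and neutrophils (128 and 33). A further T subcluster of 25 Control and 1017 DOPAC cells had a median doublet score above 0.1 and was left out.

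Motifs of known regulators of respiratory genes were counted in the members' promoters. RefSeq promoters (GRCm38.p6, 250 bases before to 50 after a start site) were matched for 65 of the 81 members, with 70 promoters, and motifs were searched on both strands. The motif of NRF1, a transcription factor known to drive many respiratory genes, searched as GCGC, any 2 bases and GCGC, was in 19 of the 70 (27.1%), beside 6.23% of 32851 promoters of the table. The YY1 motif AAGATGGCG was in 7 (10.0%), beside 1.40%. The ETS motif CCGGAAGT, bound by GABP, was in 5 (7.14%), beside 3.89%. The SP1 motif GGGCGG was in 27 (38.6%), beside 35.7%. In the 250 bases before the start site alone, the NRF1 motif was in 15 of the 70 (21.4%, beside 4.98%). There the YY1 motif was in 1 (1.43%, beside 0.606%), the ETS motif in 3 (4.29%, beside 2.88%) and the SP1 motif in 23 (32.9%, beside 32.7%). Matches of the NRF1 motif can overlap each other. Atp5k, which was higher in DOPAC in all 8 classes compared (below), has the match GCGCATGCGC before its start site, and Ndufb4 and Sdha have GCGCAGGCGC, each more than once. Windows of 100 bases that lie before the start site, outside annotated exons, are shown for 2 further genes with the NRF1 motif, of which Ndufv2 was lower in all 8 classes, and for Uqcr11 with the ETS motif. They run 5′ to 3′ on the gene's strand, with the match in capitals.
Ndufv2, chr17:66101560-66101659, minus strand: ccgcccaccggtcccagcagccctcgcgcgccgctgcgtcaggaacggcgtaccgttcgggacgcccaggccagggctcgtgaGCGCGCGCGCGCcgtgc
Ndufs5, chr4:123718245-123718344, minus strand: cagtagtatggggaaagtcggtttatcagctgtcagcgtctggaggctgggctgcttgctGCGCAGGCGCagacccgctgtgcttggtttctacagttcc
Uqcr11, chr10:80406848-80406947, minus strand: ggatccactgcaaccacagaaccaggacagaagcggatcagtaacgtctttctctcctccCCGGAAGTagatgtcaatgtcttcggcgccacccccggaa
A match describes the letters of the window and not a bound site. The 18 members with the NRF1 motif had a median log2 ratio of DOPAC to Control of 0.43 in CD8 T cells, where the 47 members without it had 0.68. In NK cells the medians were -0.32 with the motif and -0.14 without it (46 members), and in cDC1 -0.02 and 0.10.

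The chain's share of a class's RNA was read for 12 classes in each library (the plot of shares by class). Of these classes, it was highest in both libraries in cycling CD8 T cells, with 1.97% of UMIs in Control (exact binomial interval 1.94% to 2.01%) and 2.04% in DOPAC (2.03% to 2.05%). Single subclusters of CD8 T cells outside the cycle reached this level, with 2.01% in Control (27 cells) and 2.06% in DOPAC (836 cells). In both libraries the chain's share was lowest in neutrophils, with 0.773% (0.749% to 0.798%) and 0.728% (0.653% to 0.808%), followed by B cells with 0.967% and 1.03%. Neutrophils are known to rely mainly on glycolysis. Between these lay cDC1 (1.66% and 1.80%), regulatory T cells (1.55% and 1.49%), monocytes and macrophages (1.49% and 1.43%), cDC2 (1.47% and 1.63%), pDCs (1.33% and 1.38%), NK cells (1.27% and 1.23%), other T cells (1.25% and 1.16%) and mature dendritic cells (1.24% and 1.28%). In 11 of the 12 classes the DOPAC share was 0.927 to 1.11 times that of Control. The exception was CD8 T cells, below 9 of the other classes in Control with 1.203% (1.19% to 1.21%) and below cycling CD8 T cells alone in DOPAC with 1.86% (1.85% to 1.87%), a ratio of 1.55. A cluster of 53 Control cells with melanoma genes (Dct, Tyrp1, Pmel), outside these classes, gave 3.35% of its UMIs to the chain.

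**Figure D1:**
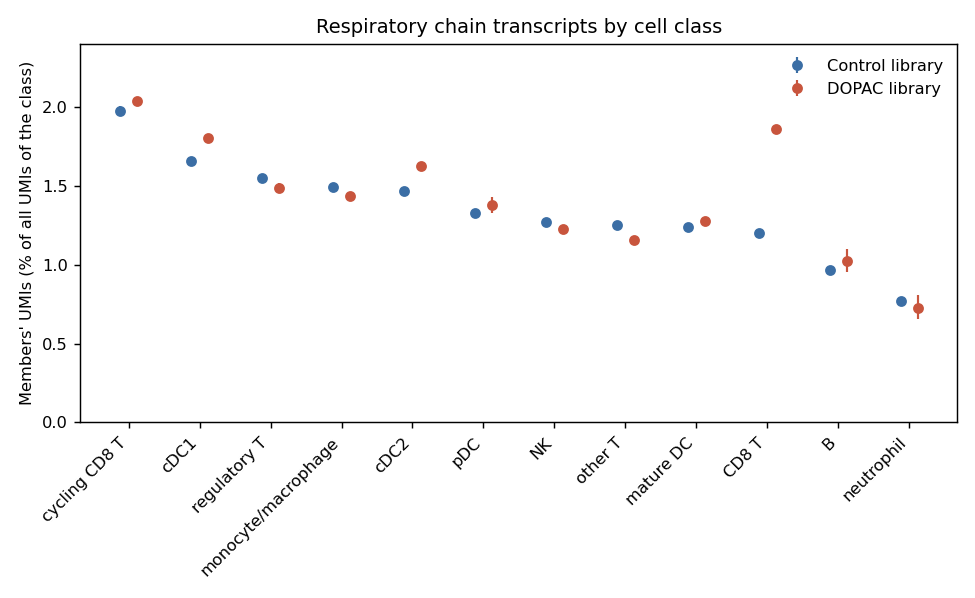
Summed UMIs of the 81 members as a percentage of all UMIs of each cell class (vertical axis) in the Control and DOPAC libraries, with exact binomial 95% intervals that cover counting error only. The pairs lie close together except in CD8 T cells, at 1.203% and 1.86%.

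The CD8 T value went with which cells made up the class. Of the 447 Control cells, 376 lay in a subcluster led by Lef1, Dapl1 and Tcf7, genes of naive T cells, and 34 in a second one named naive-like, against 10 and 1 of the 2188 DOPAC cells. These subclusters gave 1.07% and 1.06% of their Control UMIs to the chain. The DOPAC cells lay mainly in 3 subclusters of 900, 836 and 441 cells with the effector gene Gzmb among their leading genes, and these gave 1.59%, 2.06% and 2.04%. With the naive-like subclusters left out, 37 Control cells stood beside 2177 DOPAC cells, and the shares were 1.94% and 1.86%. The one of these with the most Control cells, led by Xcl1, with 27 Control and 441 DOPAC cells, gave 2.01% and 2.04%. Within the other T cells the same spread appeared inside each library: 2 subclusters of mainly DOPAC cells gave 0.923% and 1.45%, and 2 of mainly Control cells gave 1.07% and 1.43%. Haemoglobin genes led both of the latter, and their part in the result was not tested. NK cells were also split by library: the cluster of 52 Control and 1459 DOPAC cells gave 1.55% and 1.24%, and that of 1017 and 89 cells gave 1.26% and 1.11%. The difference of the pooled CD8 T class and its makeup cannot be told apart.

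Complex by complex, the CD8 T difference was uneven. Complex IV took 0.354% of UMIs in Control and 0.594% in DOPAC, complex V 0.385% and 0.597%, complex I 0.314% and 0.468%, and complex III 0.128% and 0.179%. Complex II, which is also an enzyme of the citric acid cycle, took 0.0215% and 0.0218%. In monocytes and macrophages complex I took 0.412% and 0.385%, and complex IV 0.451% and 0.455%. Complex II had the smaller share in DOPAC in each of the other 7 classes compared, for example 0.0292% and 0.0217% in monocytes and macrophages and 0.0234% and 0.0160% in NK cells.

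Single members were compared where a class had at least 20 UMIs of the gene over both libraries, on CPM (UMIs of the gene scaled to a common total of UMIs of the class), with 1 UMI added to each sum in the log2 ratio. A member was counted as higher or lower at 1.5-fold, with no test. In CD8 T cells 37 of 79 members were higher and 5 lower, with a median log2 ratio of 0.56, while of all 11291 genes compared 21.3% were higher and 23.3% lower with a median of -0.01. In other T cells 4 of 77 were higher and 18 lower (median -0.20), beside 8.7% and 18.2% of all genes. In regulatory T cells 6 of 77 were higher and 12 lower (median -0.20), beside 13.7% and 17.6%. In NK cells 5 of 79 were higher and 17 lower (median -0.22), beside 9.62% and 18.9%. Within the NK cluster of 52 Control and 1459 DOPAC cells 3 of 77 were higher and 35 lower (median -0.54, all genes -0.16), and within that of 1017 and 89 cells 2 of 78 were higher and 24 lower (median -0.27, all genes 0.12), so both had more lower members than the pooled class. In monocytes and macrophages 5 of 81 were higher and 14 lower (median -0.18), beside 16.5% and 16.7%. Of the 4 clusters in this class, 3 had medians from -0.33 to -0.07. The cluster led by C1qc (514 Control and 82 DOPAC cells) had 0.08, with 8 of 81 members higher and 6 lower. There the median of all genes was 0.10, and in the other 3 it ran from -0.04 to 0.10. In cDC1 9 of 80 were higher and 10 lower (median 0.04), beside 20.7% and 14.8%. In cDC2 9 of 80 were higher and 9 lower (median 0.07), beside 16.9% and 15.6%. In mature dendritic cells 4 of 79 were higher and 11 lower (median -0.03), beside 16.5% and 18.2%. Outside CD8 T cells, 5.06% to 11.2% of members were higher and 11.2% to 23.4% lower. Among other genes with at least 1000 UMIs in the class, 4.38% to 10.7% were higher and 9.79% to 13.4% lower there. In CD8 T cells 46.8% of members were higher and 6.33% lower, beside 24.3% and 13.5% of such genes. Without the naive-like subclusters, the CD8 T class had 6 members higher and 20 lower, with a median of -0.24, beside -0.15 for all genes. For those cells and for single clusters the share of all genes past 1.5-fold is not given, and sums over few cells are noisier. Of 44 single-member ratios of CD8 T cells followed over the settings, 41 moved without the naive-like subclusters, 1 reversed and 2 stayed the same. Those given below are for the pooled class unless said otherwise.

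Of the 77 members compared in all 8 classes, 17 had a log2 ratio above 0 in all of them and 11 had one below 0 in all, or 22.1% and 14.3%. Of all 7137 genes compared in all 8 classes, 810 were above 0 throughout and 810 below 0 throughout, 11.3% each. Of 199 other genes with at least 1000 UMIs in every class, 19.6% and 17.1% were, near the members' shares. The members entered at 20 UMIs, and only 1 of the 77 reached 1000 in regulatory T cells, so these sets are unlike in level. The 8 classes come from the same 2 libraries, so they are not independent repeats. The 17 were Ndufa1, Ndufa3, Ndufa6, Ndufa7, Ndufb1-ps and Ndufc1 of complex I, Uqcr10 and Uqcrh of complex III, Cox6c, Cox7a2, Cox7c and Cox8a of complex IV, and Atp5e, Atp5k, Atp5l, Atp5md and Atp5mpl of complex V, which, apart from Ndufb1-ps with no annotated protein, encode proteins of 51 to 130 amino acids. The 11 included Ndufa9, Ndufs7, Ndufv1 and Ndufv2 of complex I, Uqcrc1 and Uqcrfs1 of complex III, Cox4i1 and Cox7a2l of complex IV, and Atp5a1 and Atp5b of complex V, with proteins of 133 to 552 amino acids. Both sets of genes were picked by their ratios, so the difference in size is a description. The map of ratios by member and class shows these as bands that cross the classes.

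**Figure D2:**
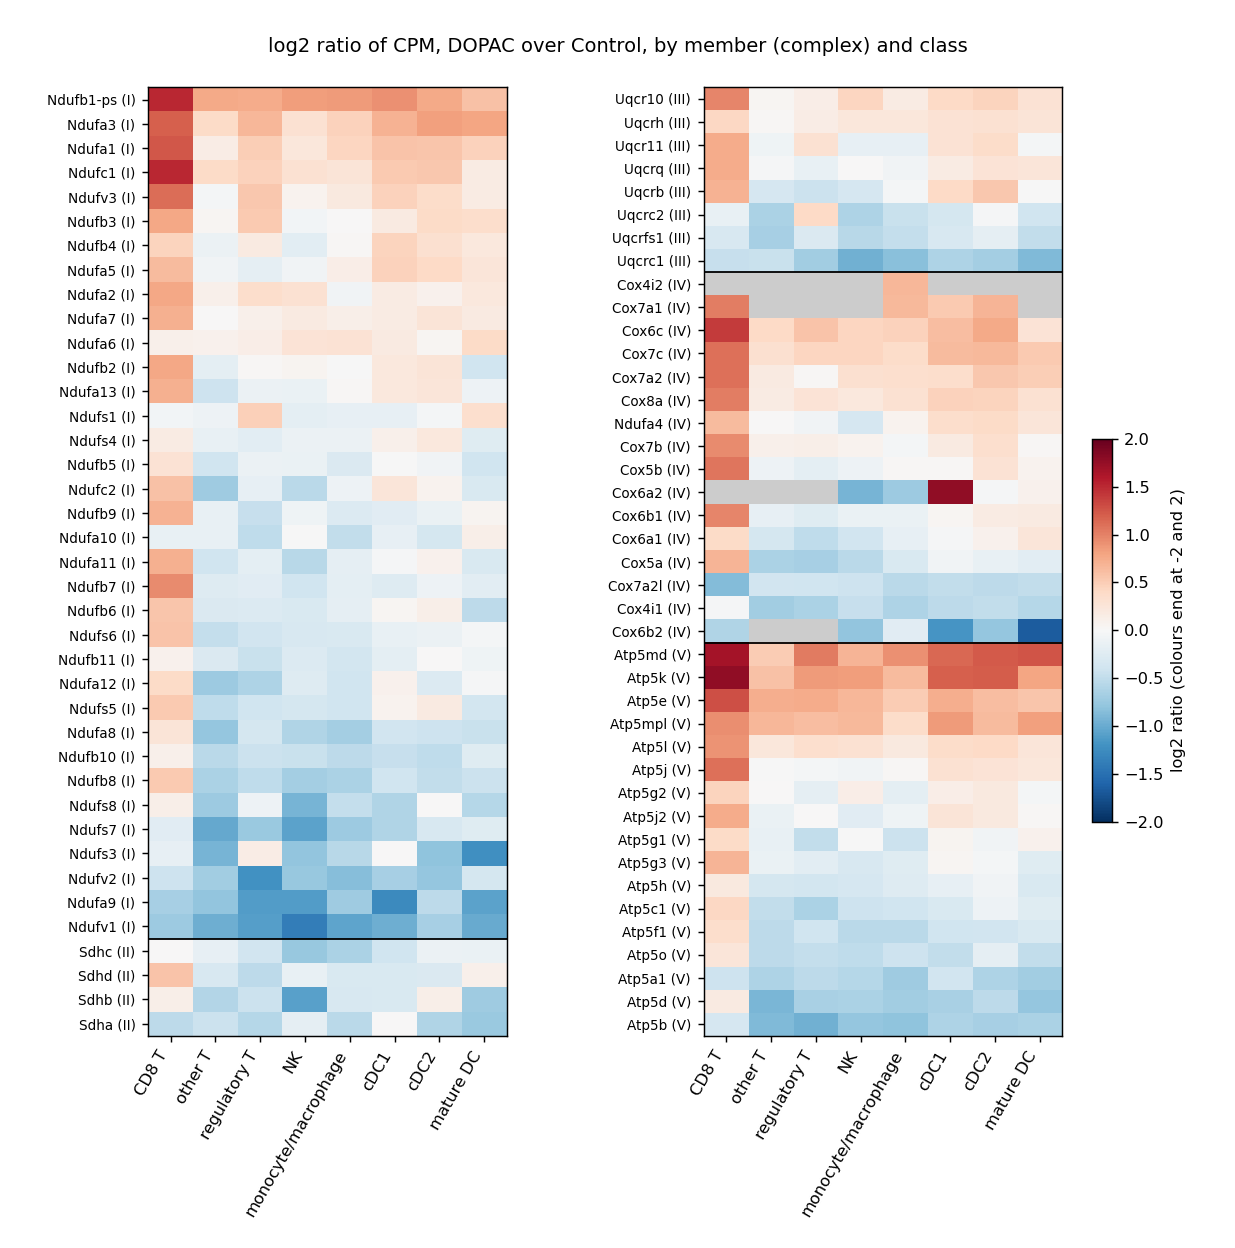
Colour gives the log2 ratio of CPM, DOPAC over Control, for 80 members (rows, with the complex in brackets, ordered by the median over classes within a complex) in the 8 classes compared (columns). Grey marks fewer than 20 UMIs. Atp5k, near the top of complex V, is above 0 in every class, and Ndufv1, at the bottom of complex I, is below 0 in every class.

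In complex I, the core subunits were mostly lower in DOPAC outside CD8 T cells. Ndufv1, which holds the flavin that takes electrons from NADH (chromosome 19, 4007384 to 4012806, minus strand), was at least 1.5-fold lower in all 8 classes. It had 32.5 CPM in Control and 12.3 in DOPAC in NK cells, a log2 ratio of -1.38 (interval -1.86 to -0.96). In cDC1 it had 45.7 and 22.7 (-0.97, interval -1.55 to -0.51). Ndufs1, the largest core subunit, did not share this: its log2 ratio ran from -0.19 in NK cells to 0.47 in regulatory T cells, with intervals that included 0 in every class compared. Of the other core subunits, Ndufv2 had 92.5 and 51.1 CPM in monocytes and macrophages (-0.85, interval -1.02 to -0.70) and 113 and 47.2 in regulatory T cells (-1.22). Ndufs7 had 66.1 and 32.2 in other T cells (-1.02, interval -1.38 to -0.70). Ndufs3 differed by class, with 65.8 and 37.2 CPM in cDC2 (-0.80, interval -1.20 to -0.46) and 66.0 and 65.6 in cDC1 (0.00, interval -0.33 to 0.30). Ndufs8, which carries iron-sulfur clusters, had 85.1 and 61.0 CPM in monocytes and macrophages (-0.48) and 88.5 and 88.8 in cDC2 (0.01). Ndufa9, an accessory subunit, had 56.3 and 22.7 CPM in cDC1 (-1.27, interval -1.85 to -0.81), the lowest ratio of complex I there.

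Other accessory subunits of complex I lay at the upper end. Ndufa3 had 105 and 185 CPM in cDC2 (0.82, interval 0.63 to 1.00) and 107 and 184 in mature dendritic cells (0.78). Ndufb1-ps had 202 and 366 CPM in monocytes and macrophages (0.86, interval 0.79 to 0.92), was at least 1.5-fold higher in all 8 classes but mature dendritic cells (0.58), and has no annotated coding length here. Ndufc1 had 45.9 and 131 CPM in CD8 T cells (1.51, interval 1.28 to 1.75) and 122 and 146 in monocytes and macrophages (0.26).

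The 4 genes of complex II were lower or near 0 in most classes. Sdhb, the iron-sulfur subunit, had 91.5 and 42.8 CPM in NK cells (-1.09, interval -1.34 to -0.86) but 79.7 and 86.3 in CD8 T cells (0.11, interval -0.08 to 0.31). Sdha, the flavoprotein, had 59.9 and 41.3 CPM in monocytes and macrophages (-0.53, interval -0.72 to -0.36) and 52.4 and 52.0 in cDC1. Sdhc and Sdhd anchor the enzyme in the membrane. Sdhc had 63.2 and 40.5 CPM in monocytes and macrophages (-0.64), and Sdhd 33.2 and 49.9 in CD8 T cells (0.58). No member of complex II was 1.5-fold higher in any class.

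In complex III the core and accessory genes parted by their median over the 8 classes, though not in every class. Those medians ran from -0.69 to -0.38 for the core genes among the members and from -0.02 to 0.35 for the accessory genes. Uqcrc1, a core protein of the matrix side, had 99.7 and 55.6 CPM in monocytes and macrophages (-0.84) and was the lowest of the complex in 7 of the 8 classes. In NK cells it had 82.3 and 42.1 (-0.96, interval -1.22 to -0.72). Uqcrfs1, the Rieske iron-sulfur protein, had 112 and 79.8 CPM in monocytes and macrophages (-0.48, interval -0.61 to -0.36). Uqcrc2, the partner of Uqcrc1, had 74.2 and 48.4 CPM in NK cells (-0.61, interval -0.86 to -0.38). In regulatory T cells it had 73.8 and 96.2 (0.39, interval -0.14 to 0.89), the highest ratio of the complex there. Among the small subunits, Uqcrb had 167 and 241 CPM in cDC2 (0.54) but was above 0 in only 3 of the 8 classes. Uqcrh, the hinge protein, had 300 and 349 in monocytes and macrophages (0.22). Uqcr10, another accessory subunit, had 134 and 264 CPM in CD8 T cells (0.98, interval 0.84 to 1.12) and 109 and 147 in NK cells (0.43, interval 0.27 to 0.59).

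In complex IV, whose catalytic subunits are encoded in the mitochondrial genome, the nuclear genes parted as well. Cox8a, a small accessory subunit, had 656 and 807 CPM in monocytes and macrophages (0.30, interval 0.26 to 0.34) and 540 and 1094 in CD8 T cells (1.02, interval 0.95 to 1.09). Cox4i1, the largest nuclear-encoded subunit, went the other way, with 703 and 460 CPM in monocytes and macrophages (-0.61, interval -0.66 to -0.56). In CD8 T cells it had 524 and 518 CPM (-0.02, interval -0.09 to 0.06). Cox6c had 256 and 678 CPM in CD8 T cells (1.40, interval 1.31 to 1.51) and 261 and 350 in NK cells (0.43). Cox5a had 209 and 334 CPM in CD8 T cells (0.68) but 235 and 161 in NK cells (-0.54, interval -0.67 to -0.41). Cox7c had 424 and 660 CPM in cDC1 (0.64, interval 0.54 to 0.74). Cox5b, the zinc-binding subunit, had 217 and 454 CPM in CD8 T cells (1.07), but its log2 ratio was -0.03 without the naive-like subclusters.

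In complex V, Atp5b and Atp5a1 lay toward the lower end and the small membrane subunits Atp5k and Atp5md at the upper end. Other membrane subunits did not share the upper end. Their medians over the classes were -0.04 (Atp5g1), 0.07 (Atp5g2), -0.17 (Atp5g3), 0.02 (Atp5j2) and -0.40 (Atp5f1). Atp5b, the catalytic beta subunit (chromosome 10, 128083273 to 128090391, plus strand), had 313 and 180 CPM in monocytes and macrophages (-0.80, interval -0.88 to -0.71) and 229 and 123 in other T cells (-0.89, interval -1.07 to -0.72). Atp5a1, the alpha subunit, had 318 and 194 CPM in monocytes and macrophages (-0.71). Atp5c1, the gamma subunit of the central stalk, had 231 and 175 CPM in monocytes and macrophages (-0.40) and 195 and 258 in CD8 T cells (0.41). Atp5d, the delta subunit of the stalk, had 291 and 153 CPM in other T cells (-0.92, interval -1.08 to -0.77). Atp5k, subunit e at the dimer interface (chromosome 5, 108433244 to 108434448, minus strand), was at least 1.5-fold higher in all 8 classes, the one member of which this held. It had 129 and 200 CPM in monocytes and macrophages (0.64, interval 0.55 to 0.72), 104 and 239 in cDC2 (1.21, interval 1.04 to 1.37) and 84.3 and 289 in CD8 T cells (1.77, interval 1.61 to 1.95). Atp5md, another small membrane subunit, had 144 and 342 CPM in mature dendritic cells (1.25, interval 1.03 to 1.46). Atp5e, the epsilon subunit of the central stalk, had 445 and 633 CPM in monocytes and macrophages (0.51).

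A list of 20 core subunits, which includes the non-catalytic Cox4i1, Cox5a and Cox5b, shows this (the plot of core and other members). Outside CD8 T cells, 0 of the 20 were 1.5-fold higher in any class, and 7 (cDC1) to 12 (other T cells) were lower. Of all genes in those 7 classes, 8.7% to 20.7% were higher and 14.8% to 18.9% lower. Their median log2 ratio ran from -0.30 in cDC2 to -0.68 in NK cells, and that of the other members from -0.13 in other T cells to 0.20 in cDC2. In CD8 T cells 2 of the 20 were higher and 2 lower, where 21.3% and 23.3% of all genes were, with a median of -0.15 for the core, beside 0.70 for the other members.

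**Figure D3:**
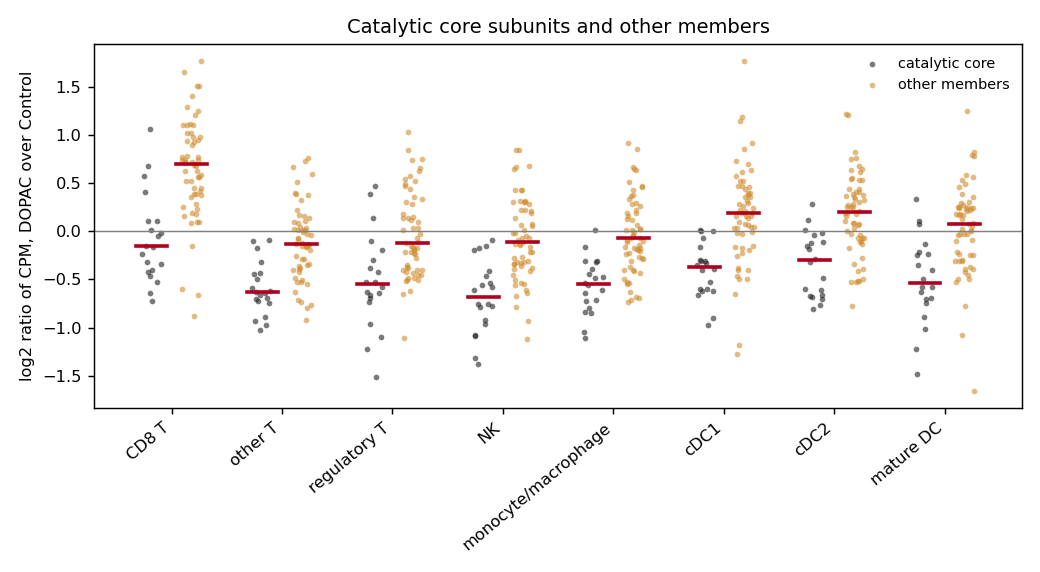
Each point is a member's log2 ratio of CPM, DOPAC over Control, for the 20 core genes (dark) and the other members (orange) in the 8 classes; red bars are medians. The core median lies below that of the other members in every class, for example at -0.68 and -0.11 in NK cells.

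Transcript length moved with this split. Over the members with an annotated length (76 to 80 per class, median length 787 bases), the Spearman correlation of length with the log2 ratio was between -0.34 (NK cells) and -0.51 (monocytes and macrophages). These points share the same 2 libraries. Other genes had a correlation of the opposite sign, between 0.13 (mature dendritic cells) and 0.23 (other T cells), in all classes but CD8 T cells (-0.04). Of those with at least 1000 UMIs, the correlation was also below 0 in regulatory T cells (-0.06). Members of up to 500 bases had a median log2 ratio of 0.44 in monocytes and macrophages and 0.31 in NK cells, and those over 1500 and up to 3000 bases -0.53 in both. Other genes of up to 500 bases had medians of 0.03 and 0.29 in those classes. Over 500 and up to 800 bases, members had -0.15 and -0.30, and other genes -0.15 and -0.16. Over 800 and up to 1500 bases, members had -0.35 and -0.34, and other genes -0.29 and -0.33. Up to 1500 bases, other genes thus also went down with length there, so in that range the trend was not one of the members alone. Other genes over 1500 and up to 3000 bases had -0.13 and -0.16. Over 3000 bases, where 3 members lay, other genes had 0.04 and -0.0056, so their medians did not go down steadily with length. Among the 13 mitochondrially encoded subunits, mt-Nd4l and mt-Atp8, whose reading frames overlap those of their neighbours, were higher in DOPAC in every class: mt-Nd4l had 54.5 and 498 CPM in monocytes and macrophages (3.19, interval 3.11 to 3.27) and 55.7 and 822 in NK cells (3.88). mt-Atp8 had 36.2 and 155 CPM in monocytes and macrophages (2.10, interval 1.98 to 2.21). Other genes of the 13 differed too, read from the 3 largest ratios of each class. mt-Nd5 had 443 and 1532 CPM in NK cells (1.79, interval 1.73 to 1.85), and its log2 ratio was 1.81 in cDC1. mt-Nd6 had 23.6 and 60.2 CPM in monocytes and macrophages (1.35). mt-Co3 went the other way in mature dendritic cells, with 4998 and 2588 CPM (-0.95). With ratios centred on other genes of similar length, the members' median in monocytes and macrophages was -0.031, and with every cell thinned to 1000 UMIs it was -0.30. With 1 library per group, a difference between the libraries and an effect of DOPAC cannot be told apart, for these mitochondrially encoded genes as for the members. The part of the differences of the mitochondrially encoded genes in the members' ratios was not tested.

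**Figure D4:**
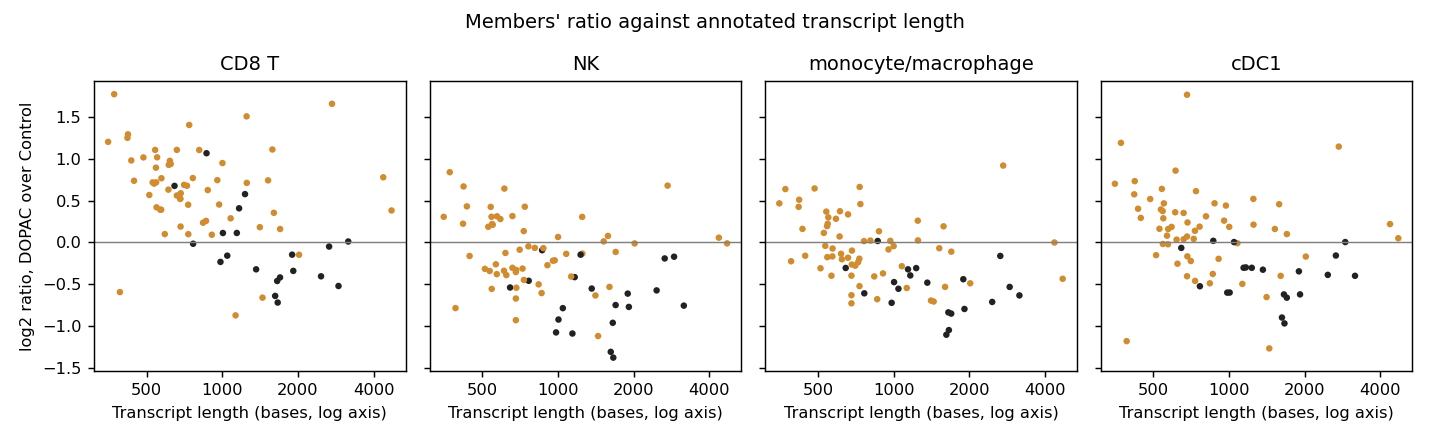
The log2 ratio of CPM, DOPAC over Control, against annotated transcript length in bases (log axis) for the members in 4 classes, with the core genes in dark and the other members in orange. The short members tend to lie higher than the long ones, with Spearman correlations of -0.50 (CD8 T), -0.34 (NK), -0.51 (monocyte/macrophage) and -0.45 (cDC1).

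Isoform use marked one class. Cox6a2, the heart and muscle isoform of subunit VIa (chromosome 7, 128205435 to 128206387, minus strand), had 744 CPM in Control pDCs (interval 719 to 771) and 708 in DOPAC pDCs (598 to 833). Its level in the median class was 3.61 and 1.27 CPM. Of the Cox6a1 and Cox6a2 UMIs of pDCs, 78.4% were Cox6a2 in both libraries, beside 1.31% and 0.84% in monocytes and macrophages. At least 1 UMI of Cox6a2 was in 361 of 394 Control pDCs (91.6%, exact interval 88.4% to 94.2%; median 10686 UMIs per cell) and 39 of 51 DOPAC pDCs (76.5%, 62.5% to 87.2%; median 4008). In B cells, taken as the background, it was in 4 of 643 Control cells (0.622%; median 4284), the lowest share of the Control classes. The highest outside pDCs was in cDC1, with 29 of 429 Control cells (6.76%; median 19436). With every cell thinned to 1000 UMIs the shares in pDCs were 48.2% and 36.2%, and in B cells 0.156% of Control cells. The highest thinned share outside pDCs in Control was 1.18%, in mature dendritic cells. Cox6a1, the ubiquitous isoform, had 205 and 195 CPM in pDCs, at the level of the other classes (the bars of both isoforms). In cDC1 of the DOPAC library, 18 UMIs of Cox6a2 gave 11.7 CPM, and all 18 came from 1 cell.

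**Figure D5:**
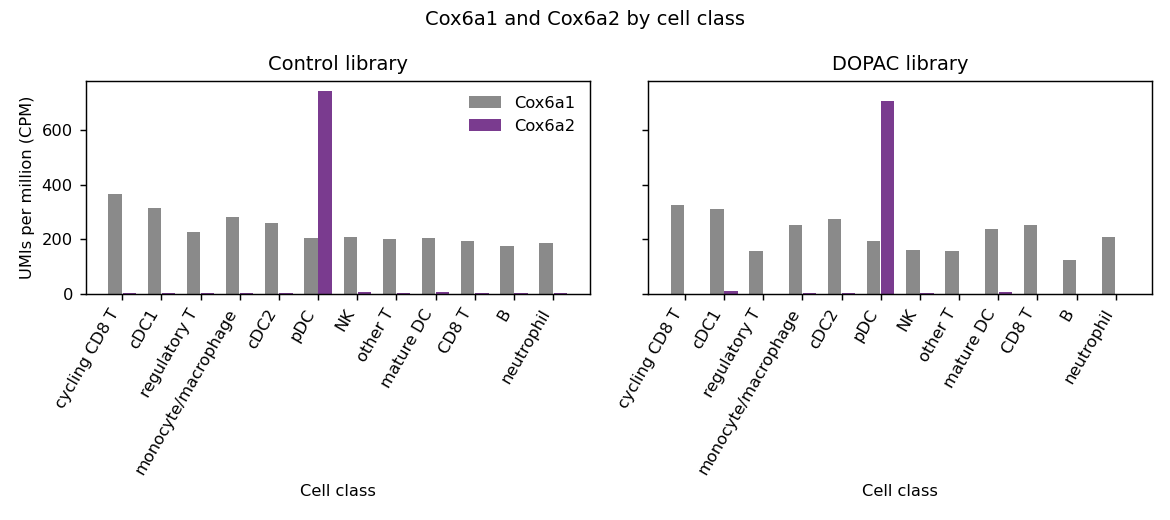
CPM of Cox6a1 (grey) and Cox6a2 (purple) by cell class in the Control library (left) and the DOPAC library (right), 1 library each. Cox6a2 stands out in pDCs, at 744 and 708 CPM.

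The other tissue isoforms were rare. Cox4i2, the lung and hypoxia isoform, was concentrated in monocytes and macrophages, with 4.29 CPM in Control (159 UMIs) and 6.69 in DOPAC (47 UMIs), 0.61% and 1.43% of the Cox4 UMIs. Cox6b2, the testis isoform, was highest in cDC2, with 14.4 and 7.98 CPM. Cox7a1, the muscle isoform, had 6.53 and 10.1 CPM in monocytes and macrophages. Between Cox7a2 and Cox7a2l, which is known to help join complexes III and IV, the balance differed: Cox7a2l made up 64.5% of the Cox7a UMIs of CD8 T cells in Control and 31.5% in DOPAC. In NK cells it made up 45.5% and 33.6%, and in monocytes and macrophages 37.1% and 24.1%. Cox7a2l itself had 395 and 215 CPM in CD8 T cells (-0.87, interval -0.97 to -0.78). The 3 genes for the c ring of ATP synthase encode the same mature protein, and Atp5g2 was the most abundant in both libraries in each of the 8 classes compared, with 40.2% and 43.0% of their UMIs in monocytes and macrophages and 54.8% and 53.7% in CD8 T cells. Atp5g1 had 312 and 231 CPM in monocytes and macrophages (-0.44), Atp5g2 330 and 288 (-0.20) and Atp5g3 177 and 150 (-0.24). Ndufa4 had 220 and 174 CPM in NK cells (-0.34) and 169 and 221 in cDC2 (0.39). Cox7b had 335 and 325 CPM in monocytes and macrophages (-0.05), and Cox6b1 395 and 359 (-0.14). Genes with near-identical processed copies may share reads, and how the counting treated those is not given in the sources used here.

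Within the DOPAC library, cycling CD8 T cells were set beside those outside the cycle. Of the 81 members, 67 had the higher level in cycling cells (of all 11398 genes compared, 46.5% did), with a median log2 ratio of 0.19, and 1 was 1.5-fold higher (Ndufv1, 16.8 CPM outside the cycle and 28.5 in it). The 2 that were lower, Cox4i2 and Cox6a2, rested on 1 UMI each in cycling cells. Of all genes, 10.5% were 1.5-fold higher and 10.1% lower, with a median of -0.03. The 4 genes of complex II were all higher in cycling cells, with a median of 0.33. The class outside the cycle was mixed. Its largest subclusters gave 1.59%, 2.06% and 2.04% of their UMIs to the chain, beside 2.04% in cycling cells. Cycling cells were also deeper, with a median of 8632 UMIs against 4142.5 outside the cycle. The part of this makeup and depth in the difference was not tested.

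Related gene lists were read against the shares of all genes at 1.5-fold: 21.3% higher and 23.3% lower in CD8 T cells, 16.5% and 16.7% in monocytes and macrophages, and 8.7% and 18.2% in other T cells. Of the 14 citric acid cycle genes, 0 were 1.5-fold higher in any class but regulatory T cells (1 of 13), and 8 were lower in other T cells and in monocytes and macrophages, with medians of -0.63 and -0.69. Of the 78 mitochondrial ribosome genes, 11 were higher and 7 lower in CD8 T cells (median 0.13), and 0 were higher and 34 lower in monocytes and macrophages (median -0.52). Of the 48 assembly factors, 47 were compared in CD8 T cells, with 11 higher and 7 lower (median 0.11), the first near and the second under those shares. A further list held electron carriers, enzymes linked to ubiquinone, genes for making ubiquinone, and Ndufab1. Of 17 genes of that list, 5 were higher and 4 lower in CD8 T cells (median -0.32), both near those shares. Of 7 mitochondrial carriers 0 were higher and 0 lower there (median 0.21). Of the biogenesis regulators, 6 of 15 were lower and 1 higher in CD8 T cells (median -0.30). Cytosolic ribosomal protein genes had a median of 0.25 in NK cells and -0.28 in CD8 T cells, and their share of CD8 T UMIs was 29.6% in Control and 25.6% in DOPAC.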

How the data were processed

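Per the file headers, Cell Ranger 7.0.1 made the deposited matrices, which hold whole UMI counts with no normalization; the genome was GRCm38 per the submitters' processing notes. The labels' protocol speaks of colon tissue, while the tissue label says tumor; the latter was followed. Cells needed at least 500 UMIs, 200 genes and at most 10% mitochondrial UMIs. Scrublet in scanpy 1.11.5 scored doublets per library: 370 Control cells were removed by its threshold, and, as that marked 0 DOPAC cells, the 815 with the highest scores were removed. Both libraries were clustered together without integration (2000 variable genes without the members, 30 principal components, 15 neighbours, Leiden resolution 1). T clusters were clustered again. The thresholds for naming classes were set after the data were seen, as was leaving out T subclusters with a median doublet score of at least 0.1. Counts were summed per class and library. Log2 ratios add 1 UMI to each sum. Intervals are exact, at 95%, and treat UMIs as independent, so they are narrower than any interval that would include mice. The ratio and interval code was tested on simulated data. Promoters are those of RefSeq, coordinates and lengths those of GENCODE M21 on GRCm38.

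The members and the gene lists were chosen with earlier results of these data known. Named members are the highest and lowest log2 ratio of each complex and class with at least 100 UMIs, the catalytic core, the isoform families, Cox7a2l, and members with at least 5 times the level of the median class in one class; the rest are named where a count or a pattern over classes turns on them, chosen after their values were seen. Other doublet, mitochondrial, depth, scaling, filter and clustering settings were tried. Values of 1 member are not reported here, though it is in the counts and medians.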

Additional observations from a re-analysis of the deposited data

How the results depend on the processing

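No paired analysis was possible because each group is 1 library. The median log2 ratio of the members stayed within its typical counting interval in 95 alternative values over the 8 classes and left it in 6. That interval is the median of the members' own interval ends. It is wide (-0.52 to 0.26 in mature dendritic cells) and is no interval of the median itself. Signs also changed inside it, for example to 0.10 in mature dendritic cells with doublets kept and to -0.02 in cDC2 when thinned. In cDC1 the median was -0.05 when centred on all genes. The members' median turned negative in CD8 T cells at clustering resolution 0.5 (-0.31, with 32 Control cells) and without the naive-like subclusters (-0.24, all genes -0.15). It moved to 0.14 in other T cells with the members among the variable genes, to 0.17 in regulatory T cells at 1000 UMIs per cell, and in monocytes and macrophages to -0.031 when centred by transcript length and to -0.33 in their cluster led by Arg1. The length centring, the separate monocyte and macrophage clusters and the inclusion of the high-doublet T subclusters (CD8 T median 0.52) were chosen after seeing the data. Cox5b in CD8 T cells was -0.10 at resolution 0.5 and -0.031 without the naive-like subclusters, and Cox6b1 was -0.034 at resolution 0.5. The cause of the other moves was not tested. Atp5k was above 0 in all 109 class and setting values and Ndufv1 below 0 in all 106. Counts of members past 1.5-fold differed by more than 1.5 times in the following cases. In CD8 T cells the main 37 higher and 5 lower became 6 and 26 at resolution 0.5, 6 and 20 without the naive-like subclusters, 23 higher when centred by length, and 3 lower when thinned. In other T cells the main 4 and 18 became 7 and 5 with the members among the variable genes and 3 lower by length. In regulatory T cells the main 6 and 12 became 17 and 7 when thinned, 7 lower with doublets kept and 6 lower by length. In mature dendritic cells the main 4 and 11 became 10 and 7 when thinned, 11 higher with doublets kept and 8 higher at the 5% mitochondrial limit. NK cells had 3 higher and cDC2 14 lower when thinned. Monocytes and macrophages had 6 lower by length, 9 lower in the cluster led by Ccl2, 3 higher in that led by Plcb1 and Chil3 and 2 higher in that led by Arg1. Clusters with under 100 cells in 1 library were not among these alternatives. The monocyte and macrophage cluster led by C1qc had a median of 0.077, with 8 higher and 6 lower, outside the counting interval and of the other sign. All genes had a median of 0.097 there, so the sign was shared with all genes. The NK clusters had medians of -0.54, with 3 higher and 35 lower, and -0.27, with 2 higher and 24 lower.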
